A study of Mus musculus with 41 samples.

Results

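Fgf21 is 1 of 13283 genes with a probe in a survey of mouse thymic stroma on Illumina arrays, and it is represented there by 1 probe of the 20825 probes assigned to a single gene. Its probe was found by its gene symbol and had a value on every array of both sorted fractions, so the choice used no measured level. The study asked how gene expression in thymic stroma changes with ageing and after castration, when the involuted thymus transiently regrows.

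All mice were male C57Bl/6. Flow cytometry gave thymic epithelial cells (TEC) as the CD45- EpCAM+ fraction and the non-epithelial stroma (nonTEC) as the CD45- EpCAM- fraction. The 24 TEC arrays form 8 groups of 3: unoperated middle-aged mice (9 to 12 months old) and unoperated young mice (5 to 6 weeks old), and middle-aged mice that were surgically castrated or sham-castrated and taken 4, 7 or 20 days later. The 17 nonTEC arrays form 6 groups with the same ages and operations but no day 20, of 3 arrays each except sham day 7 with 2. No group carries an engineered allele. The labels do not say whether the arrays of a group came from separate mice, and the p-values then cover no more than the spread among the arrays deposited.

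FGF21 is an endocrine fibroblast growth factor. Unlike most members of the family it binds heparan sulphate weakly, leaves the tissue that makes it and acts on cells that carry an FGF receptor together with the co-receptor beta-klotho. Liver is its best known source: PPAR-alpha induces the gene there in fasting, and ATF4 induces it in many cells when the integrated stress response is active. In mice, thymic stroma has also been described as a source, and animals that overexpress FGF21 keep a larger thymus with age.

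The stretch of 250 bases before the Fgf21 start is shown because the target genes of its known regulators are described further on. It is RefSeq sequence of GRCm38.p6, chr7:45615491-45615740, minus strand, with capitals marking the matches to 6 motifs searched on both strands.
Fgf21: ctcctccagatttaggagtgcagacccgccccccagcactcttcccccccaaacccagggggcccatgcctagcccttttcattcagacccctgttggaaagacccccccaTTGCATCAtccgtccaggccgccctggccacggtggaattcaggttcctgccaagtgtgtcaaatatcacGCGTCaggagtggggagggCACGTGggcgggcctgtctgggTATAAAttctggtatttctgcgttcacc

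The core of the C/EBP-ATF response element, TTGCATCA, which binds ATF4 with C/EBP partners, lay at bases -139 to -132 from the start and occurred in 0.818% of 27025 mouse promoter windows of the same length. The core GACGC bound by FOXN1, the transcription factor that defines thymic epithelium, lay on the opposite strand at -69 to -65 and occurred in 22.6% of windows. An E-box, CACGTG, lay at -50 to -45 (6.05% of windows) and a TATA box, TATAAA, at -28 to -23 (13.0%). The PPAR motif arm AGGTCA (13.8% of windows) and the cAMP response element TGACGTCA (1.62%) had no match in these letters. These motifs do not overlap each other. A match describes the letters and is not a measured binding site.

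Before the values, the arrays themselves need a description. On the first principal component of the TEC arrays, which held 35.6% of the variance, all 6 day 20 arrays, castrated and sham, scored 0.277 to 0.360, and no other array scored above 0.0217. Middle-aged array 3 and castrated day 4 arrays 2 and 3 lay at one end of the second component (0.349 to 0.417), sham day 4 array 3 had the highest mean of the thymocyte markers (10.11), and results without these 4 arrays are given further on. Without them castrated day 4 TEC keeps only array 1, and middle-aged and sham day 4 TEC keep arrays 1 and 2. Middle-aged array 2 lay at the other end of the second component (-0.408), and it is among the arrays left out singly wherever lost calls are counted. The sorting labels matched their markers: the mean of 11 medullary TEC markers lay between 10.91 and 11.72 on TEC arrays and between 6.22 and 7.76 on nonTEC arrays, while fibroblast markers lay between 6.38 and 8.35 on TEC arrays and between 11.39 and 12.46 on nonTEC arrays. Foxn1 itself stayed at 4.74 to 5.81 in the TEC groups, under the value of 6.73 (the median of all values) that a gene had to pass to be tested.

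Fgf21 was a TEC transcript in every condition measured. On the 24 TEC arrays its normalized log2 intensity lay between 10.90 and 13.13 with a median of 12.58, and on the 17 nonTEC arrays between 5.29 and 7.22 with a median of 5.77, so the lowest TEC array stood well above the highest nonTEC array. In unoperated mice, young and middle-aged weighted equally, the mean was 12.65 in TEC and 6.18 in nonTEC. The difference was 6.47 ± 0.15 (SE, 6 arrays against 6, log2; adjusted p = 8.06e-26 in limma). Since the nonTEC mean lay under the filter value of 6.73, no exact fold is read from it; counted against that value instead, TEC had an at least 60.3-fold higher signal.

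Of the 8487 genes tested across both fractions, 29.3% were called higher in TEC. Differences of similar size were those of Krt5, Chga and Csn2, whose nonTEC means also lay under the filter value, so the order among these genes is not read. Krt5, a keratin of medullary and progenitor TEC, differed by 7.38, Chga, which encodes the neuroendocrine granule protein chromogranin A, by 7.13, and Csn2, the milk protein beta-casein, by 6.53. An exact two-sided permutation over the 12 unoperated arrays gave p = 0.00216, the smallest those arrays allow. The authors appear to have normalized the fractions separately, since arrays share their quantiles within a fraction and not between them, so the comparison between fractions holds only on that footing.

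**Figure D1:**
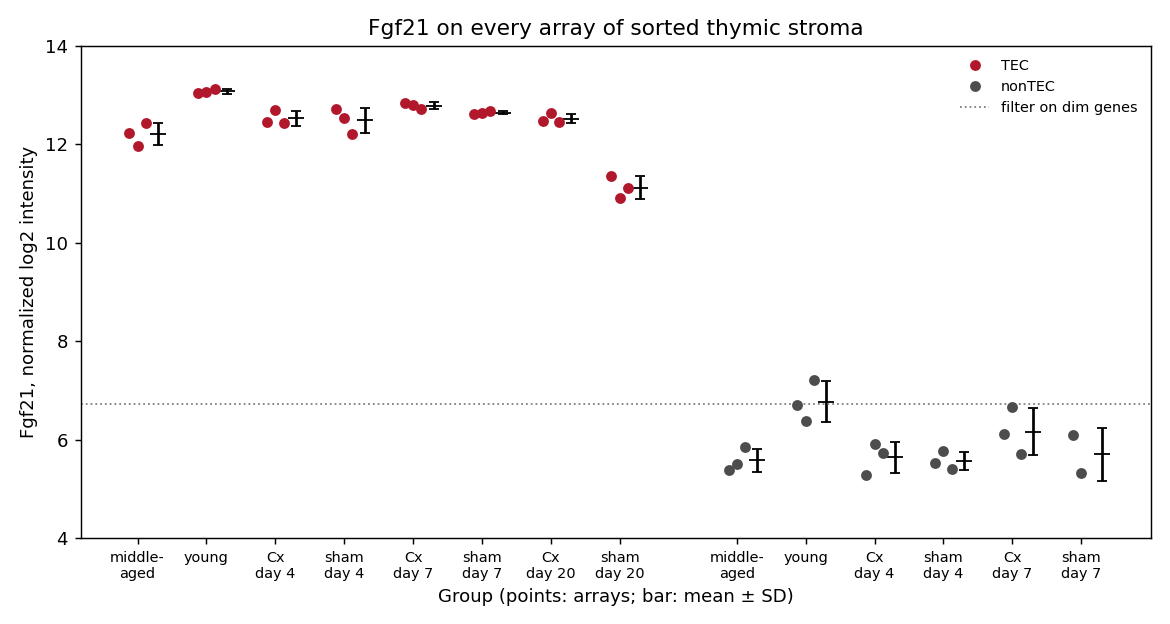
Normalized log2 intensity of Fgf21 on each of the 41 arrays (points), with the mean ± SD of each group beside them (Cx, castrated); the dotted line marks the value of 6.73 used as the filter on dim genes. All TEC arrays lie between 10.90 and 13.13 and all nonTEC arrays between 5.29 and 7.22, and the sham day 20 arrays are the lowest TEC arrays.

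Within TEC the groups ordered as follows. Young TEC had the highest mean, 13.08 ± 0.05 (SD, n = 3 here and below). Castrated day 7 TEC followed at 12.79 ± 0.07 and sham day 7 TEC at 12.65 ± 0.03. Adjacent groups in this upper part of the order did not overlap on any array.

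Castrated day 4 TEC averaged 12.53 ± 0.15, castrated day 20 TEC 12.52 ± 0.09 and sham day 4 TEC 12.49 ± 0.26. Middle-aged unoperated TEC averaged 12.21 ± 0.23. Sham day 7 and these groups overlapped each with its neighbour in the order, whereas the sham day 20 group at 11.13 ± 0.23 lay below every other TEC array.

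Fgf21 was lower in middle-aged than in young TEC. The middle-aged arrays had 12.23, 11.98 and 12.43, and the young arrays 13.04, 13.07 and 13.13. All middle-aged arrays lay below all young arrays, and the young arrays were the tighter group. Fgf21 fell by 0.87 ± 0.13 on the log2 scale (SE), 1.83-fold lower in middle-aged TEC, with a 95% interval from -1.14 to -0.59 and adjusted p = 0.000313 in limma over 8195 genes. Of these genes 18.8% were called with age, 6.88% as lower, and 666 genes (8.13%) fell at least as far as Fgf21, which ranked 54 by p.

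The exact permutation test of 3 arrays against 3 gave p = 0.1, the smallest possible. Fitted on the 6 arrays alone, the same difference had adjusted p = 0.0727. Medullary TEC markers moved with it: their mean lay between 11.09 and 11.30 on middle-aged arrays and between 11.62 and 11.67 on young arrays, and their part in the Fgf21 difference was not tested. In bulk sorted cells, fewer cells of a type and less RNA per cell cannot be told apart.

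Sham-operated mice give middle-aged TEC from other arrays, set against the same young arrays. Averaged over the 3 days, Fgf21 was 0.99 ± 0.11 lower in sham than in young TEC (adjusted p = 7.44e-06, limma; 26.3% of genes called), and 0.13 ± 0.11 lower than in unoperated middle-aged TEC (adjusted p = 0.465; 5.58% called). Much of the first value came from day 20. With sham days 4 and 7 only, a comparison chosen after the values were seen, Fgf21 was 0.51 ± 0.11 lower than in young TEC (adjusted p = 0.0119; 5.76% called).

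That call was lost when young array 2 (adjusted p = 0.0564) or young array 3 (0.0578) was left out, and in the fit of all 41 arrays (0.0864). Against unoperated middle-aged TEC, the same sham arrays were higher by 0.36 ± 0.11 with adjusted p = 0.0875 (3.01% called), which passed the threshold without middle-aged array 3 (0.47 higher), without sham day 4 array 3 (0.43 higher), without the 4 arrays that stood apart (0.54 higher) and with array weights (0.38 higher). The level in sham TEC at days 4 and 7 therefore lay between the young and the unoperated middle-aged level, with a test passed on the young side only in the fit reported.

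Fgf21 was higher in castrated than in sham TEC at day 20, and no difference passed the test at day 4 or day 7. At day 4, castrated arrays had 12.46, 12.70 and 12.43, and sham arrays 12.71, 12.54 and 12.21. The groups overlapped, and the difference was 0.04 ± 0.13 (95% interval -0.23 to 0.32, adjusted p = 0.863; 3.62% of genes called).

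At day 7, castrated arrays had 12.85, 12.79 and 12.72, and sham arrays 12.61, 12.65 and 12.68. Every castrated array lay above every sham array, but by little: 0.14 ± 0.13 (95% interval -0.13 to 0.41) with adjusted p = 0.695 in limma, on a day when 0.171% of genes were called and 1079 had an unadjusted p under 0.05.

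At day 20, castrated arrays had 12.47, 12.63 and 12.46, and sham arrays 11.36, 10.90 and 11.11. The groups were separated by more than 1 log2 unit. Fgf21 was 1.40 ± 0.13 higher in castrated TEC, 2.63-fold, with a 95% interval from 1.12 to 1.67 and adjusted p = 2.56e-06. On that day 22.5% of genes were called, 13.1% as higher, and 240 genes (2.93%) were at least as much higher, but by p Fgf21 ranked 3 of 8195.

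The daily differences were not alike: a moderated F test across the 3 days gave F = 33.2 and adjusted p = 0.000105, with 17% of genes called. Seen by arm, sham TEC held 1.44 ± 0.11 less Fgf21 at day 20 than at days 4 and 7 (adjusted p = 2.80e-08), and castrated TEC 0.14 ± 0.11 less (adjusted p = 0.333). These comparisons across days were chosen after the values were seen, and they cross the split of the day 20 arrays from the rest, with 57.8% of genes called in the sham arm and 48.2% in the castrated arm. Sham day 20 TEC was also 1.09 ± 0.13 below unoperated middle-aged TEC (adjusted p = 6.26e-06; 48.9% called). Day and any batch of arrays cannot be told apart here.

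The size of the day 20 value depended on the control. With unoperated middle-aged arrays in place of sham, castrated day 20 TEC was 0.31 ± 0.13 higher (adjusted p = 0.0546) and castrated day 7 TEC 0.57 ± 0.13 higher (adjusted p = 0.0258). That day 20 comparison crosses the split of the day 20 arrays from the rest, and 4176 of 8195 genes were called in it. Averaged over the days against sham, the castration difference was 0.53 ± 0.08 (adjusted p = 0.000554; 10.8% of genes called), and exchanging castrated and sham labels within days gave an exact two-sided p of 0.0163 over 8000 arrangements. Without day 20 it was 0.09 ± 0.09 (adjusted p = 0.553).

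The Fgf21 mean of castrated TEC lay below that of young TEC on each day, with a test passed at days 4 and 20. Averaged over the days, castrated TEC was 0.47 ± 0.11 below young TEC (adjusted p = 0.00590; 20.9% called), a call lost when the TEC arrays were fitted together with the nonTEC arrays (adjusted p = 0.0514). By day, castrated TEC was lower than young TEC by 0.55 at day 4 (adjusted p = 0.0114, 13.5% called), by 0.29 at day 7 (adjusted p = 0.241, 2.23% called) and by 0.56 at day 20 (adjusted p = 0.00214, 42.2% called). The day 20 value crosses the split of the day 20 arrays from the rest. The day 4 call was lost without castrated day 4 array 3 (adjusted p = 0.0544) and in the fit of all 41 arrays (adjusted p = 0.0680), while with array weights the day 7 difference passed (0.29 lower, adjusted p = 0.0319).

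**Figure D2:**
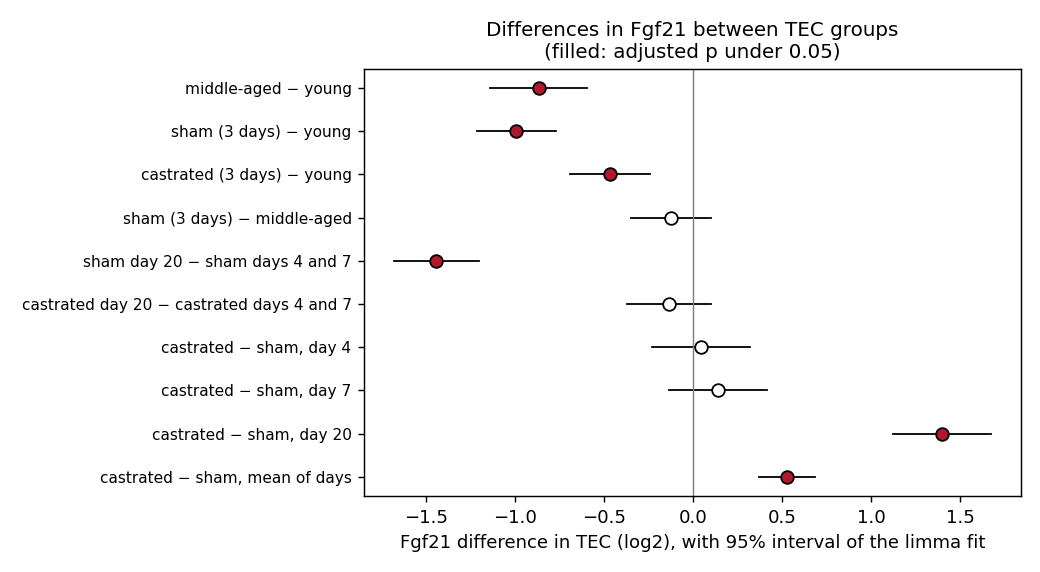
Fgf21 differences between TEC groups on the log2 scale, with 95% intervals of the limma fit; filled points have an adjusted p under 0.05. Castrated minus sham is 0.04 at day 4, 0.14 at day 7 and 1.40 at day 20, and middle-aged minus young is -0.87.

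In nonTEC, Fgf21 was dim, and it passed the filter only through the young group, by 0.0414, so it had to be highest there. Middle-aged nonTEC arrays had 5.39, 5.51 and 5.85, and young arrays 6.71, 6.39 and 7.22. The difference of -1.19 ± 0.30 (adjusted p = 0.00604; 32.4% of genes called) is therefore given as a description.

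Other transcripts were also higher in young nonTEC. Aire, the medullary regulator of tissue-restricted antigens, averaged 5.24 in middle-aged and 7.50 in young nonTEC, and Krt8, an epithelial keratin, 8.37 in middle-aged and 10.06 in young nonTEC. The pattern was not limited to epithelial genes: the mean of the thymocyte markers was 7.75 in middle-aged and 9.09 in young nonTEC, that of the fibroblast markers 11.68 in middle-aged and 12.31 in young nonTEC, and that of the endothelial markers 8.31 in middle-aged and 8.77 in young nonTEC. The part of such transcripts in the nonTEC value was not tested. The mean of 3 liver and pancreas markers went the other way, at 6.81 in middle-aged and 5.97 in young nonTEC. Of 7771 genes tested in nonTEC, 2516 were called with age, 1208 of them as lower in middle-aged nonTEC. The ageing difference in TEC minus that in nonTEC was 0.32 ± 0.30 (95% interval -0.29 to 0.93, adjusted p = 0.517; 11.2% called).

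Castrated nonTEC arrays had 5.29, 5.91 and 5.73 at day 4, against 5.53, 5.77 and 5.42 in sham nonTEC, and 6.12, 6.67 and 5.71 at day 7, against 6.09 and 5.32 in sham nonTEC. Both pairs of groups overlapped. The differences were 0.07 ± 0.30 at day 4 (adjusted p = 0.917; 6.31% called) and 0.46 ± 0.33 at day 7 (adjusted p = 0.715; 0.438% called).

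Of the klotho co-receptor genes, Kl was measured and changed with age. Kl encodes alpha-klotho, which serves FGF23; the beta-klotho gene Klb that serves FGF21 was not analysed here. Kl had 9.23, 7.43 and 8.70 on middle-aged TEC arrays, against 5.74, 5.71 and 5.85 on young TEC arrays. The young arrays lay below the filter and close together, and all middle-aged arrays lay above them. Kl was 2.69 ± 0.44 higher in middle-aged TEC (adjusted p = 0.000603), or at least 1.72 higher when counted against the filter value in place of the dim young signal. At day 20 it did not separate castrated from sham TEC (0.11 ± 0.44, adjusted p = 0.910). Both day 20 means (6.70 castrated, 6.59 sham) lay under the filter value. Castrated day 20 TEC differed by -1.76 from unoperated middle-aged TEC in Kl (limma, adjusted p = 0.00293, with 4176 genes called), so the high level was not shared by all middle-aged groups.

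Fgf15, the ileal endocrine FGF of mice, stayed at 5.46 or less in every TEC group and was not tested, and neither Fgf23 nor the receptor genes Fgfr1 and Fgfr4 were analysed here. Fgfr3 reached at most 4.96. Fgfr2, whose epithelial isoform receives the TEC growth factor FGF7, was measured clearly. Castrated day 20 TEC had 11.08, 11.26 and 11.22, and sham day 20 TEC 12.28, 12.33 and 12.27. Sham day 20 arrays were thus the highest TEC arrays for Fgfr2, the converse of their place for Fgf21.

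Fgfr2 was 1.11 ± 0.14 lower in castrated than in sham TEC at day 20 (adjusted p = 3.14e-05), yet 0.03 higher than in unoperated middle-aged TEC (adjusted p = 0.889). With age it was 0.37 ± 0.14 higher with adjusted p = 0.0759. These values are from the brightest of its 4 probes, and averaged over all 4 the day 20 difference was -0.84 (adjusted p = 0.000353) and the age difference -0.04. Fgfrl1, a decoy-like receptor without a kinase domain, was 1.12 ± 0.30 higher in middle-aged TEC (adjusted p = 0.0150), a call lost without young array 1 (adjusted p = 0.0785). Its young mean of 6.18 lay under the filter value.

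Genes downstream of FGF receptors were tested next. Of 4 tested members of the FGF signal relay, 2 rose with age and 0 fell, against 11.9% of all genes rising, and at day 20 in castrated TEC 0 rose and 2 fell, against 9.4% of all genes falling. Gab1, the adaptor that links FGF receptors to PI3 kinase and SHP2, was 0.89 ± 0.15 higher in middle-aged TEC (adjusted p = 0.000826) and 0.89 ± 0.15 lower in castrated than in sham TEC at day 20 (adjusted p = 0.000404). Against unoperated middle-aged TEC the day 20 value was -0.23 (adjusted p = 0.213). The adaptor Shc1 was the other member called in both comparisons, at 0.45 ± 0.12 with age and -0.38 ± 0.12 at day 20; its call was lost without young array 2 (adjusted p = 0.0784) and, at day 20, without 4 of the 6 arrays in turn, and both were lost when its 2 probes were averaged.

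Of 6 tested feedback and ERK target genes, 2 rose with age and 0 fell (11.9% and 6.88% of all genes), and at day 20 in castrated TEC 1 rose and 2 fell (13.1% and 9.4% of all genes). Without the 4 arrays that stood apart, 3 rose and 1 fell with age, in a fit that called 17.6% of all genes higher and 18.5% lower, and 1 rose and 4 fell at day 20, where it called 18.3% higher and 14.9% lower. Dusp6, the phosphatase that ERK induces and that switches ERK off, had 11.27, 11.39 and 11.37 on middle-aged TEC arrays, against 10.51, 10.47 and 10.18 on young arrays. At day 20 it had 9.80, 9.66 and 9.74 in castrated TEC and 11.19, 10.81 and 10.99 in sham TEC. The groups of both comparisons did not overlap. Dusp6 was 0.95 ± 0.17 higher with age (adjusted p = 0.00105) and 1.26 ± 0.17 lower in castrated TEC at day 20 (adjusted p = 5.12e-05). Against unoperated middle-aged TEC, a comparison with 4176 genes called, it was lower by 1.6 (adjusted p = 9.32e-07).

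Among the others, the ERK inhibitor Spred1 fell by 0.83 ± 0.20 at day 20 (adjusted p = 0.00601), and Dusp4 was 0.97 ± 0.32 higher (adjusted p = 0.0320), a call lost without 5 of the 6 arrays in turn. Against unoperated middle-aged TEC the day 20 values were -0.14 for Spred1 (adjusted p = 0.592) and -0.48 for Dusp4 (adjusted p = 0.215). Dusp5 was 1.14 ± 0.38 higher with age (adjusted p = 0.0399), likewise lost in 5 of 6 cases. Of the 15 other FGF ligands listed, 2 were tested, and 1 passed a test. Fgf1, an FGF that binds all FGF receptors, was 1.42 ± 0.42 lower in castrated than in sham TEC over the days (adjusted p = 0.0379, with 10.8% of all genes called).

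Of 8 tested regulators known to act on Fgf21 elsewhere, 1 rose and 1 fell with age (11.9% and 6.88% of all genes). The rise was in Nr1d1, the clock repressor REV-ERB-alpha, which was 1.67 ± 0.45 higher in middle-aged TEC (adjusted p = 0.0144), a call lost without young array 3 (adjusted p = 0.0576). Its young mean of 5.30 lay under the filter value. Nr1d1 passed the filter only through middle-aged (6.98) and castrated day 4 TEC (7.00), so its difference is given as a description. The fall was in the deacetylase gene Sirt1, by 0.84 ± 0.26 (adjusted p = 0.0321; lost without 4 of 6 arrays in turn).

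At day 20, when 13.1% of all genes rose and 9.4% fell, Sirt1 alone of the 8 passed. It was 1.15 ± 0.26 higher in castrated TEC (adjusted p = 0.00359), and higher by 2.13 against unoperated middle-aged TEC (adjusted p = 4.39e-06, with 4176 genes called). Atf4 was too variable for a call, with -0.86 ± 0.81 for age (adjusted p = 0.470). Ppara was not analysed here.

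Of 20 tested ATF4 target genes, 2 rose and 2 fell with age (11.9% and 6.88% of all genes). Their median difference was -0.06 against 0.01 over all genes tested. Without the 4 arrays that stood apart 3 rose and 4 fell, against 17.6% and 18.5% of all genes. Trib3, a pseudokinase that dampens ATF4 output, was 1.06 ± 0.27 lower in middle-aged TEC (adjusted p = 0.0125), and Chac1, which degrades glutathione, 0.92 ± 0.27 lower (adjusted p = 0.0235). Trib3 lost its call without young array 2 (adjusted p = 0.0768) or middle-aged array 2 (0.0740), and Chac1 without 4 of 6 arrays in turn. Vldlr, a lipoprotein receptor, rose by 0.87 ± 0.20 (adjusted p = 0.00662), and the stress factor Atf3 by 0.86 ± 0.22 (adjusted p = 0.0117; lost without young array 3 or middle-aged array 2).

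At day 20 in castrated TEC, 4 ATF4 targets rose and 2 fell (13.1% and 9.4% of all genes), with a median of 0.10 against -0.04 over all genes. Trib3 had 7.64, 7.61 and 7.62 in castrated day 20 TEC, against 6.80, 6.55 and 6.85 in sham day 20 TEC, and was higher by 0.89 ± 0.27 (adjusted p = 0.0231; lost without 4 of 6 arrays in turn). Chac1 was higher by 0.80 ± 0.27 (adjusted p = 0.0365; lost without each of the 6). Stc2, a secreted stanniocalcin, rose by 0.81 ± 0.22 and the leucine zipper factor Cebpg by 0.38 ± 0.10 (adjusted p = 0.0105 and 0.00878), while Atf3 fell by 1.96 ± 0.22 (adjusted p = 1.20e-05). Both day 20 group means of Chac1 (6.65 and 5.84) and of Stc2 (6.71 and 5.90) lay under the filter value, which these genes passed through other groups. Against unoperated middle-aged TEC, where 4176 genes were called, Atf3 stood at -2.87 and passed, whereas the values of 0.05 for Trib3, -0.20 for Chac1, 0.14 for Stc2 and -0.15 for Cebpg did not pass. Averaged over its 2 probes Cebpg differed from sham by -0.00721.

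Of 12 tested PPAR-alpha target genes, many of which carry fatty acid oxidation, 3 rose and 0 fell with age (11.9% and 6.88% of all genes), with a median difference of 0.34 against 0.01 over all genes. Members that did not pass included Hadhb at -0.58 and Cpt2 at -1.57. At day 20 in castrated TEC 0 rose and 2 fell (13.1% and 9.4% of all genes), with a median of -0.37 against -0.04. Without the 4 arrays that stood apart, 5 rose and 1 fell with age (17.6% and 18.5% of all genes), and 4 fell at day 20 (14.9%). Pdk4, a pyruvate dehydrogenase kinase, had 9.48, 9.04 and 8.93 on middle-aged TEC arrays, against 8.40, 7.90 and 7.15 on young arrays, and was higher by 1.34 ± 0.30 (adjusted p = 0.00560). At day 20, Pdk4 had 6.25, 6.57 and 6.26 in castrated TEC and 8.52, 8.27 and 8.85 in sham TEC, a difference of -2.19 ± 0.30 (adjusted p = 5.89e-05). The castrated mean of 6.36 lay under the filter value, so the size of this difference is not exact. For Pdk4 the castrated day 20 arrays were the lowest of all TEC arrays.

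Acot1, a cytosolic thioesterase for long-chain acyl-CoA, was higher by 0.57 ± 0.15 with age (adjusted p = 0.0148; lost without young array 1 or middle-aged array 1) and lower by 0.94 ± 0.15 at day 20 (adjusted p = 0.000246). Averaged over its 2 probes, neither passed (adjusted p = 0.752 and 0.101). Acadl, an acyl-CoA dehydrogenase, was higher with age by 0.76 ± 0.26 (adjusted p = 0.0436), a call lost without each of the 6 arrays. Its young mean of 6.09 lay under the filter value. Acadl passed the filter only through middle-aged (6.85) and sham day 7 TEC (6.77), so its age difference is given as a description. At day 20 Acadl differed by -0.45 ± 0.26 (limma, adjusted p = 0.226). Fgf21 is a PPAR-alpha target in liver. Pdk4, Acot1 and Acadl were named because they passed with age, where every call in this list was a rise. Their signs were thus set by that choice and are not read against Fgf21, whose sign with age Hadhb and Cpt2 shared.

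**Figure D3:**
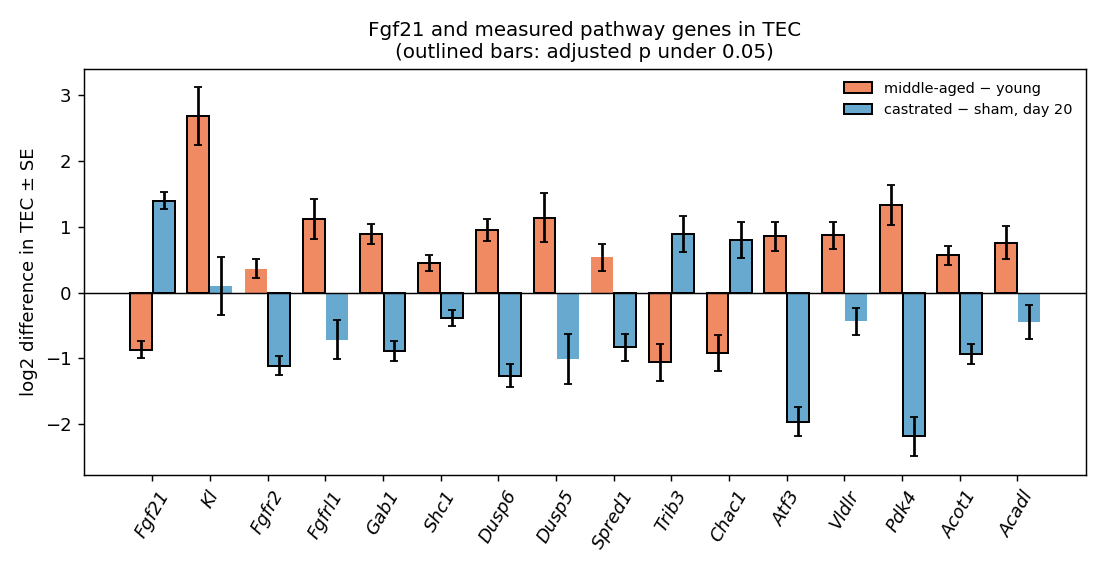
Log2 differences ± SE of Fgf21 and measured genes around it in TEC, for middle-aged minus young and for castrated minus sham at day 20; outlined bars have an adjusted p under 0.05. Fgf21 is at -0.87 and 1.40, Dusp6 at 0.95 and -1.26, Pdk4 at 1.34 and -2.19, and Kl at 2.69 and 0.11.

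Of 11 tested medullary TEC markers, 0 rose and 2 fell with age (11.9% and 6.88% of all genes), with a median of -0.45 against 0.01 over all genes. In castrated TEC at day 20, 5 rose and 0 fell (13.1% and 9.4% of all genes), with a median of 0.76 against -0.04. Without the 4 arrays that stood apart, 7 fell with age, in a fit that called 18.5% of all genes lower, and 8 rose at day 20, where it called 18.3% higher. Cd40, a receptor by which thymocytes drive medullary TEC, was 0.64 ± 0.14 lower with age (adjusted p = 0.00520) and 1.19 ± 0.14 higher at day 20 (adjusted p = 1.91e-05). The other marker that fell was Tnfrsf11a, which encodes RANK, by 1.12 ± 0.36 (adjusted p = 0.0378; lost without 5 of 6 arrays in turn).

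Aire had 12.90, 13.02 and 12.91 in castrated day 20 TEC, against 11.90, 11.89 and 11.83 in sham day 20 TEC, and rose by 1.07 ± 0.22 (adjusted p = 0.00138). With age Aire differed by -0.24 ± 0.22 (adjusted p = 0.441), or by -0.80 as the mean of its 3 probes (adjusted p = 0.0455). Fezf2, another regulator of tissue-restricted antigens, was 0.96 ± 0.14 higher at day 20 (adjusted p = 0.000103). Cd80 and Spib also passed at day 20 (1.57 ± 0.51 and 0.72 ± 0.24), each lost without 5 of 6 arrays in turn, and against unoperated middle-aged TEC the value of Spib was 0.17 (adjusted p = 0.571).

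Across the 24 TEC arrays the mean of the 11 medullary markers and Fgf21 correlated at r = 0.73 (Spearman rho 0.64), at 0.76 without the day 20 arrays and at 0.55 with group means removed. Arrays of one group share their sort and their conditions, so this is a description. The castrated day 20 arrays had the highest medullary mean, 11.72, without the highest Fgf21, and the sham day 20 group was the lowest for both, although its marker means of 10.91 to 11.11 overlapped those of other groups. Medullary cell content and its part in the day 20 difference in Fgf21 were not tested.

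**Figure D4:**
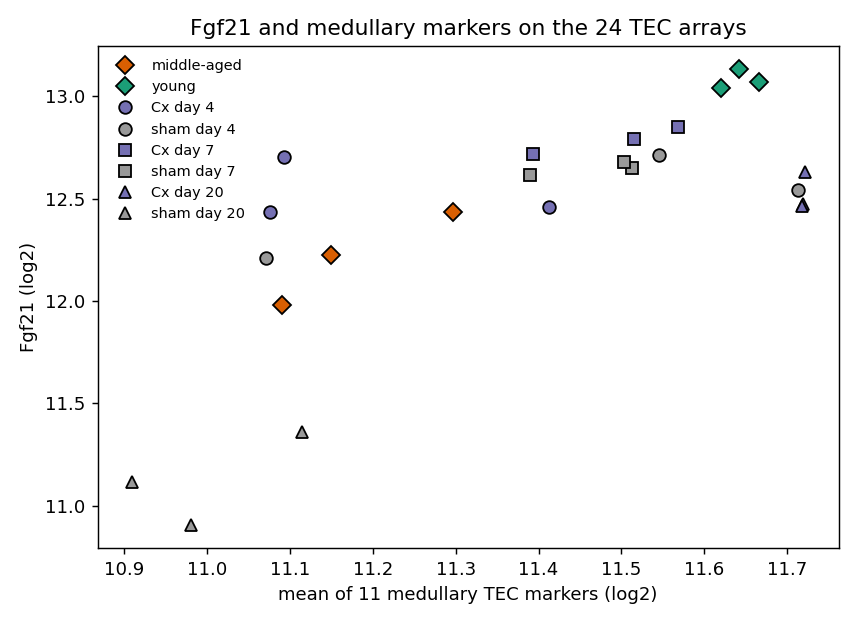
Fgf21 against the mean of 11 medullary TEC markers on each TEC array (both log2; Cx, castrated). The sham day 20 arrays have the lowest Fgf21 at marker means of 10.91 to 11.11, young arrays the highest Fgf21, and castrated day 20 arrays the highest marker mean at Fgf21 values of 12.46 to 12.63.

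Other cell types were followed through their own lists. Over all genes, 11.9% rose and 6.88% fell with age, and 13.1% rose and 9.4% fell at day 20. Cortical markers, 8 tested, gave 1 rise with age, in Cxcl12, by 1.49 ± 0.43 (adjusted p = 0.0217). That call was lost without 4 of 6 arrays in turn, and as the mean of its probes Cxcl12 stood at 0.87 (adjusted p = 0.388). At day 20 cortical markers gave 0 calls in limma, with 0 at an unadjusted p under 0.05. Their mean correlated with Fgf21 at r = -0.54. Tuft cell markers, 5 tested, gave 1 fall with age, in Gnat3, the taste G protein gustducin, by 2.0 ± 0.53 (adjusted p = 0.0143). That call was lost without young array 3 or middle-aged array 2, and the middle-aged mean of Gnat3 (6.51) lay under the filter value. Tuft markers gave 1 rise at day 20, again in Gnat3, lost without each of the 6 arrays. The tuft mean correlated with Fgf21 at r = 0.68, and at 0.30 without the day 20 arrays. Fibroblast and endothelial markers, 3 tested genes each, gave 0 calls in limma in both comparisons (1 fibroblast gene had an unadjusted p under 0.05 with age, and 0 genes otherwise). Thymocyte markers, 4 tested, gave 1 rise and 0 falls with age (median -0.08). At day 20 they gave 0 calls in limma (median 0.77), with 0 at an unadjusted p under 0.05. The mean of 5 thymocyte markers lay between 6.95 and 7.26 on castrated and between 6.20 and 6.66 on sham day 20 arrays. Fibroblast means (6.81 to 6.82 against 6.38 to 6.46) and tuft means (6.53 to 6.85 against 6.08 to 6.38) were also apart. So were cortical means (9.28 to 9.47 against 9.24 to 9.25), while endothelial means overlapped. Their part in the Fgf21 difference was not tested. The thymocyte rise with age was in Cd8b1, by 0.58 ± 0.16 (adjusted p = 0.0206). That call was lost without young array 2 or 3, and as the mean of its probes Cd8b1 stood at 0.07 (adjusted p = 0.941). Cd3g and Cd3d stood at -0.71 and -0.27, neither past the test. Without the 4 arrays that stood apart, 3 cortical, 1 fibroblast, 1 endothelial and 1 thymocyte marker rose with age. In the same fit 3 tuft markers and 1 thymocyte marker fell, beside 17.6% of all genes higher and 18.5% lower. At day 20 it called 2 tuft, 1 fibroblast and 2 thymocyte markers higher and 0 lower, beside 18.3% of all genes higher.

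Since Fgf21 is best known from liver and exocrine pancreas, genes of those organs were also read. Of 4 tested, 0 rose and 2 fell with age (11.9% and 6.88% of all genes), and 3 rose and 1 fell at day 20 (13.1% and 9.4%). The plasma protein genes Apoa1 and Ttr were lower in middle-aged TEC by 1.16 ± 0.30 (adjusted p = 0.0128) and 1.28 ± 0.44 (adjusted p = 0.0484). At day 20 they were higher in castrated than in sham TEC by 1.63 ± 0.30 (adjusted p = 0.000666) and 1.99 ± 0.44 (adjusted p = 0.00293). Without middle-aged array 2 their age calls were lost (adjusted p = 0.0632 for Apoa1 and 0.287 for Ttr). The middle-aged mean of Ttr (6.30) lay under the filter value.

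The pancreatic genes parted: Ctrb1, which encodes chymotrypsinogen, rose at day 20 by 1.14 ± 0.18 (adjusted p = 0.000204), while the amylase gene Amy2a5 fell by 1.2 ± 0.18 (adjusted p = 0.000139). Both day 20 means of Ctrb1 (6.49 and 5.35) lay under the filter value. Against unoperated middle-aged TEC the values were 0.08 for Ctrb1 (adjusted p = 0.728) and -0.01 for Amy2a5 (adjusted p = 0.957). Apoa1 (0.91, adjusted p = 0.0169) and Ttr (2.48, adjusted p = 0.000163) passed in that limma comparison, which called 4176 genes. The mean of the liver and pancreas list correlated with Fgf21 at r = 0.62 over the 24 arrays.

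Across the 22 listed genes named for an age difference that passed the test, 6 kept their call whichever single array was left out: Kl, Gab1, Dusp6, Vldlr, Pdk4 and Cd40. Fgf21 kept its own age call in all 6 such fits, with adjusted p of at most 0.00228.

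A search over all genes tested in TEC gave those whose course was most like that of Fgf21 over the 24 arrays. The median r over 8194 genes was 0.08, and 20 genes exceeded 0.9. Highest was Smpdl3b, a membrane-anchored phosphodiesterase of the acid sphingomyelinase family, with r = 0.95 (rho 0.85), 0.85 without the day 20 arrays and 0.69 with group means removed. Smpdl3b had 8.77, 8.65 and 9.39 on middle-aged arrays and 9.48, 9.56 and 9.71 on young arrays, and 9.42, 9.39 and 9.23 in castrated day 20 TEC against 8.30, 8.0 and 7.96 in sham day 20 TEC. As with Fgf21, the sham day 20 arrays were its lowest.

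Pvalb, which encodes the calcium buffer parvalbumin, followed at r = 0.94, then Spata19, Mras (a RAS-family GTPase), Hagh (glyoxalase II), Cib1 and Gnb4 (a G protein beta subunit), all at 0.93, and Eif4e2, a cap-binding protein, at 0.92. With group means removed, these ranged from -0.08 for Eif4e2 to 0.79 for Mras, so the likeness of Eif4e2 lay in the group means. When the day 20 arrays were left out, 3 of the 8 highest genes stayed among the 8 highest.

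The opposite course was led by Elovl6, the elongase that makes stearate from palmitate, with r = -0.93. Elovl6 had 7.16, 7.09 and 7.16 in castrated day 20 TEC, against 8.14, 8.21 and 8.16 in sham day 20 TEC. Ganc, an alpha-glucosidase gene, Prrc2b and Wwc2 followed, each at -0.91. All 12 of these genes were picked for their likeness or unlikeness to Fgf21, so their levels are a description.

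**Figure D5:**
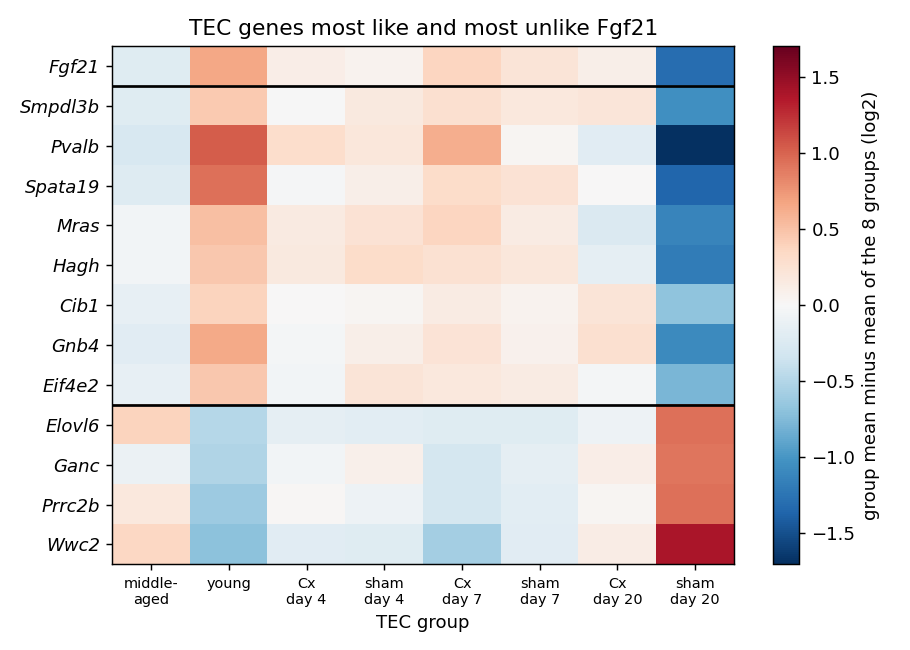
Group means of Fgf21, the 8 TEC genes most like it and the 4 most unlike it, each centred on its mean over the 8 groups (log2; Cx, castrated). Fgf21 and the genes most like it are low in sham day 20 TEC and high in young TEC, and the genes most unlike it run the other way.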

How the data were processed

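The deposited values are normalized log2 intensities per probe on single-colour Illumina arrays; per the labels' protocols, RNA was purified from sorted cells and biotin-labelled cRNA was hybridised. A logarithm of base 2 was assumed, since no source states it. The submitters' processing notes name limma without version or role; for background correction and detection filter the sources used here give nothing. The median was 6.68 on TEC arrays and 6.81 to 6.82 on nonTEC arrays, and arrays of a group correlated at 0.854 or more in TEC and 0.972 or more in nonTEC. No array was left out. Precision is limited by how few arrays each group has.

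The values were used as deposited. Of 24671 probes, 20825 had 1 gene, 11 several and 3835 none in the platform annotation. The probe of highest mean over the arrays fitted stood for its gene. A gene was tested where at least 1 group mean exceeded 6.73, the median of all values, which left 8195 genes in TEC, 7771 in nonTEC and 8487 in both. limma 3.58.1, run in R 4.3.3 with a mean-variance trend, fitted 1 mean per group, with 16, 11 and 27 residual degrees of freedom, and p-values were adjusted by Benjamini-Hochberg over the genes tested, at a threshold of 0.05. Differences are given ± SE of that fit. On simulated data with 200 changed genes, 66% of log2 changes of 1 were recovered in the ageing and the day 20 comparison, and 32% between days.

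The members, the 16 gene lists and the tests were chosen with earlier results of these data known. Genes named were every tested klotho, FGF and FGF receptor gene, up to 4 members per list of smallest p among those called with age, Aire, Atf4 and Foxn1, and the 8 most and 4 least correlated genes over TEC arrays; day 20 calls among list members, and Fgf1, were named after their values were seen. Alternatives were other filters, scalings, probe rules, variance models, array weights, subsets of arrays, a replicate block, other controls and each array left out. The replicate numbers were not used as pairs in the fit reported. Of 12 same-numbered pairs of array deviations, 4 correlated above 0.1, the highest at 0.262. Differently numbered pairs were not compared, so this check cannot exclude pairing.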

Additional observations from a re-analysis of the deposited data

Results flagged for a closer look

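The difference in Fgf21 between castrated and sham TEC was not the same on days 4, 7 and 20 (moderated F test in limma, adjusted p = 0.000105), at 0.04, 0.14 and 1.40 on the log2 scale. All day 20 arrays, castrated and sham, stand apart from the arrays of the other days. With unoperated middle-aged arrays as the control on each day, the test between days gave adjusted p = 0.168, and the part of the day 20 arrays' separation in the difference was not tested.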

How the results depend on the processing

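Of 274 recomputed values of 12 Fgf21 comparisons, 268 stayed on their side of the threshold, among them all 126 with 1 array left out. Of these, 5 that were called in neither setting changed sign: day 4 without the 4 arrays that stood apart (-0.168, with only array 1 left in castrated day 4 TEC), without sham day 4 array 3 (-0.0950) or castrated day 4 array 2 (-0.0414), and sham minus unoperated middle-aged TEC without those 4 arrays (0.0313) or without day 20 (0.356). The 6 that changed side were the ageing difference fitted on its 6 arrays alone (-0.868, adjusted p = 0.0727), castrated minus young TEC in the fit of all 41 arrays (-0.467, adjusted p = 0.0514), the castration difference over days without day 20 (0.0914, adjusted p = 0.553), and, with unoperated middle-aged arrays in place of sham, day 7 (0.575, adjusted p = 0.0258), day 20 (0.310, adjusted p = 0.0546) and the test between days (adjusted p = 0.168). In the 10 Fgf21 comparisons chosen after the values were seen, 10 of 164 values changed side, 5 of them with 1 array left out: sham days 4 and 7 against young TEC (3 lost) and against unoperated middle-aged TEC (4 gained), and castrated against young TEC at day 4 (2 lost) and day 7 (1 gained). Without the 4 TEC arrays that stood apart, the ageing difference was -0.978 (adjusted p = 2.61e-05), and array scaling moved no Fgf21 difference by more than 0.01 on the log2 scale for age, day 4, day 20 and the mean over days.

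The count of genes called with age, 1542, was 3188 with array weights, 8 on the 6 arrays alone and 2957 without the 4 arrays that stood apart, and ranged from 773 (without young array 2) to 2390 (without middle-aged array 3), with 985 without young array 3 and 907 without middle-aged array 2. Counts over all alternatives ran from 0 to 2314 at day 4 (297 in the fit reported), 0 to 2275 at day 7 (14), 1174 to 4299 at day 20 (1841) and 59 to 3330 over days (887). A fit with the replicate block changed no Fgf21 call (ageing adjusted p = 0.000545, day 20 9.80e-06, over days 0.00115); its count for age was 1726.

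Of 2438 values, 55 turned their sign. The 8 differences called on either side were Atf3 over days without day 20 (0.294), Cebpg at day 20 as the mean of all probes (-0.00721), and, at day 20 against unoperated middle-aged TEC, Kl (-1.76), Fgfr2 (0.0261), Chac1 (-0.196), Dusp4 (-0.481), Cebpg (-0.155) and Izumo1 (-0.234). Eif4e2's correlation turned with group means removed (-0.0799). The other 46 were called on neither side and include the 5 of Fgf21, Fgfr2 with age as the mean of all probes (-0.0384) and, at day 20 against unoperated middle-aged TEC, Cxcl12 (0.252), Vldlr (0.329) and Atf4 (1.03). The causes were not tested. Under the stricter filter Fgf21 was not tested in nonTEC.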

Other observations

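The genes beside Fgf21 on the chromosome were read after its values were seen. Of the 5 nearest protein-coding genes on each side in RefSeq's GRCm38.p6 annotation, 8 of 10 were tested in TEC. In castrated against sham TEC at day 20, 6 of these rose and 1 fell, against 13.1% and 9.4% of all genes, with a median difference of 0.70 against -0.04 over all genes. Mamstr, a coactivator of MEF2 factors, had 7.89, 8.0 and 8.24 in castrated day 20 TEC, against 6.93, 6.73 and 6.62 in sham day 20 TEC, and was higher by 1.28 ± 0.22 (limma, adjusted p = 0.000395).

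Rasip1, which is needed for vessel tube formation, was higher by 0.76 ± 0.19 (adjusted p = 0.00582) and Tulp2, a tubby-like gene of testis, by 0.70 ± 0.16 (adjusted p = 0.00433). Plekha4 was higher by 0.88 ± 0.24 (adjusted p = 0.0120), a call lost without 1 of the 6 arrays. The calls of Fut2 (0.71) and Izumo1 (0.65) were lost without each of the 6 arrays, and both day 20 means of Izumo1 lay under the filter value. So did the sham day 20 means of Rasip1 (6.31) and Fut2 (6.61). Ppp1r15a, an ATF4 target, was lower by 0.57 ± 0.19 (adjusted p = 0.0332; lost without 5 of 6), and Bcat2 differed by 0.16 ± 0.29 (adjusted p = 0.759).

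With age, 1 of the 8 neighbours passed the test, against 18.8% of all genes called and 6.88% called lower. Tulp2 fell by 0.67 ± 0.16 in middle-aged TEC (adjusted p = 0.00904). Against unoperated middle-aged TEC, castrated day 20 TEC differed by 0.07 for Mamstr, 0.27 for Rasip1, 0.13 for Tulp2, 0.39 for Plekha4, 0.31 for Fut2, -0.23 for Izumo1 and -0.65 for Bcat2, none past the threshold, and by -1.82 for Ppp1r15a (adjusted p = 8.10e-07). In that comparison 4176 genes were called.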
